A study of Drosophila melanogaster with 14 samples.

Results

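The genes of the vacuolar proton pump of Drosophila melanogaster were measured across 7 genotype groups of flies labelled as adult males. They were chosen by name, as all genes whose FlyBase symbol starts with Vha. Of 33 such genes, 32 were listed in at least 1 of 3 deposited expression tables, out of 15490 genes in the whole series, and 28 were listed in all 3. The choice used no expression value. Vha16-2 was not used here.

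The vacuolar proton pump, or V-ATPase, is a rotary machine that acidifies endosomes, lysosomes and secretory vesicles. Its peripheral V1 sector hydrolyses ATP, and its membrane V0 sector moves protons across the membrane. In neurons the gradient it builds drives the loading of transmitter into synaptic vesicles, and in gut and renal epithelia of insects the pump also works at the plasma membrane. Several subunits are encoded by more than 1 gene, and such paralogs are often used in different tissues.

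Groups are named here by their genotype. In the first table, flies carrying both the elav-Gal4 driver and a UAS-APP transgene (Elav-Gal4;UAS-APP;+, called elav-Gal4 UAS-APP) were set against the driver alone (Elav-Gal4;+;+, called driver controls) and the transgene alone (w;UAS-APP;+, called UAS-APP controls). The elav promoter drives Gal4 in neurons, so APP, the amyloid precursor protein, is made there and not in every cell. In the second table, flies carrying an allele of the potassium channel gene Shal (w;+;Shal495, called Shal495, of which replicate 2 is labelled Shal496) were set against w1118. In the third, flies with the driver and a transgene for the heat-activated cation channel TrpA1 (Elav-Gal4;+;UAS-TrpA1, called elav-Gal4 UAS-TrpA1) were set against the transgene alone (w;+;UAS-TrpA1, the UAS-TrpA1 control). No driver-only library stands in that table. Each group had 2 libraries of about 50 pooled flies aged 5 to 7 days, kept at room temperature. The labels do not tie the 2 libraries of a group to separate cultures, so the p-values rest on a spread that may be only technical.

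Values are FPKM as the authors deposited them, that is fragments of a gene divided by its length and by library depth, and levels of different genes are compared only on this scale, which is per length. Totals recovered from the tables ran between 17162942 and 19911318 fragments per library. The labels call the tissue brain and the series description names heads, and markers differed widely between the groups. The summed FPKM of 9 neuron markers was 979 and 969 in elav-Gal4 UAS-APP, against 49.1 and 49.9 in driver controls and 231 and 174 in UAS-APP controls. The summed FPKM of 14 gut markers, most of them digestive enzymes, was 741 and 747 in elav-Gal4 UAS-APP, against 52649 and 53696 in driver controls and 22843 and 24686 in UAS-APP controls. Libraries of different groups of the APP table did not overlap in either sum. No neuron marker was at 0 in both libraries of a group, with elav itself at 20.3 and 20.6 FPKM, 2.22 and 2.41 FPKM and 10.1 and 6.63 FPKM in the same order of groups. Summed glia markers ran at 1231 and 1240 FPKM, 704 and 698 FPKM and 814 and 792 FPKM in that order. In the second table the neuron sums lay close together, at 721 and 720 FPKM in Shal495 and 745 and 748 FPKM in w1118, but the summed FPKM of testis markers was 3.10 and 4.56 in Shal495, against 247 in w1118 replicate 1 and 14.1 in w1118 replicate 2. In the third table the neuron sums were 188 and 183 FPKM in elav-Gal4 UAS-TrpA1 and 208 and 206 FPKM in its control, and the gut sums 6283 and 6522 FPKM against 6284 and 6424 FPKM. These near-equal gut sums hold genes that went both ways, with 4 of 12 tested gut markers higher and 7 lower in elav-Gal4 UAS-TrpA1 (limma). Among the lower ones Jon25Bi reached 1 FPKM, the limit for testing, in the control libraries alone, so its direction was fixed in advance. The maltase Mal-A1 was at 221 and 224 FPKM in elav-Gal4 UAS-TrpA1 and 79.4 and 79.1 FPKM in its control, and the trypsin epsilonTry at 58.8 and 61.4 FPKM and 306 and 296 FPKM. The yolk protein gene Yp1, counted among the fat body markers, also differed between groups that the labels give as male. It was at 28.2 and 29.4 FPKM in driver controls, 38.2 and 37.2 FPKM in Shal495 and 63.7 and 63.2 FPKM in the UAS-TrpA1 control. In the other groups its highest value was 0.426 FPKM, in w1118 replicate 1. The part of these differences in the results on the pump was not tested. In such bulk samples fewer cells of a type and less RNA per cell cannot be told apart. Shal was at 18.3 and 20.0 FPKM in Shal495 and 27.7 and 27.1 FPKM in w1118, and TrpA1 at 2.76 and 2.62 FPKM in elav-Gal4 UAS-TrpA1 and 1.48 and 1.48 FPKM in its control, while the APP transgene was not analysed here.

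**Figure D1:**
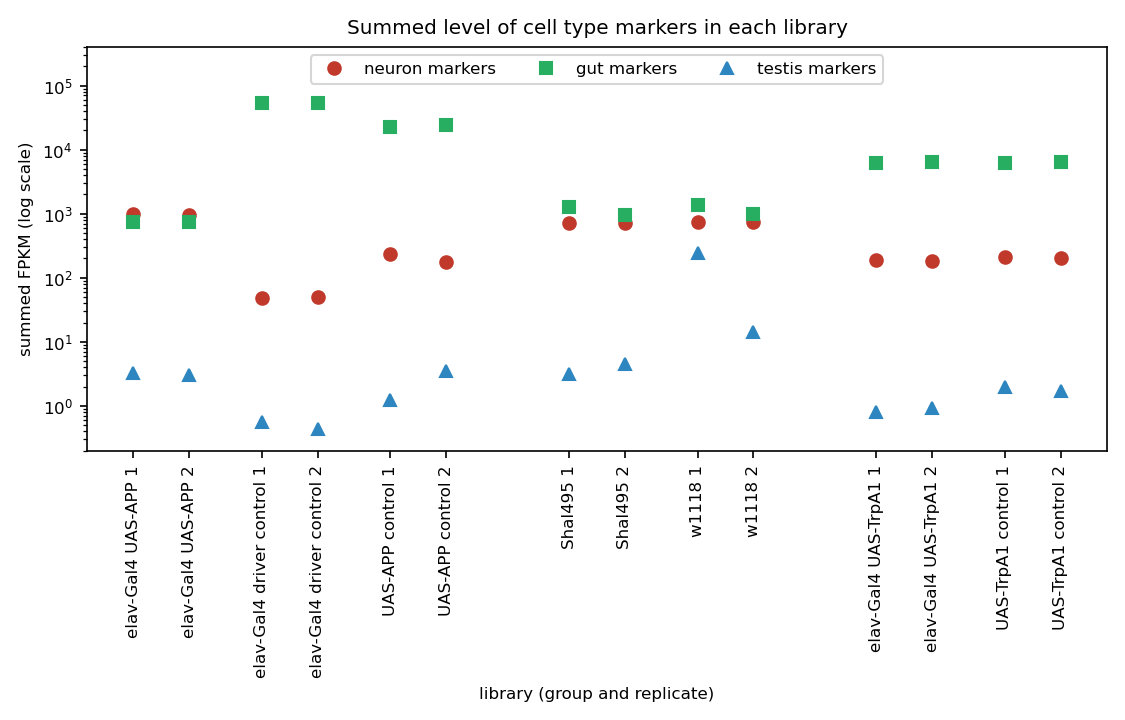
Summed FPKM of the neuron, gut and testis marker genes in each of the 14 libraries, on a log axis, with a point per library and list. The neuron sum was 979 and 969 FPKM in elav-Gal4 UAS-APP and 49.1 and 49.9 FPKM in driver controls, gut markers ran the opposite way, and testis markers stood at 247 FPKM in w1118 replicate 1.

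Levels split the 32 genes into 20 well expressed ones, with a mean over the 7 group means of 10 FPKM or more, and 12 restricted ones below it. The genes next to this limit were Vha36-3 at 10.7 FPKM and Vha100-5 at 7.80 FPKM. Because the limit was set on level, the split is a description. All 14 subunits, counting the accessory Ac45 proteins, had at least 1 well expressed gene, and 9 subunits had more than 1 gene. Means over groups set across tables are only a rough guide, since the tables were normalized separately.

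The proteolipid subunit c, whose copies form the rotating membrane ring, had the highest level, with Vha16-1 at a mean of 454 FPKM. Subunit G of the peripheral stalk (Vha13, 433 FPKM), subunit B of the ATP-hydrolysing head (Vha55, 251 FPKM) and subunit E of the stalk (Vha26, 206 FPKM) followed. Subunit D of the central rotor (Vha36-1) stood at 194 FPKM, subunit F (Vha14-1) at 191 FPKM and the second proteolipid c'' (VhaPPA1-1) at 181 FPKM. The regulatory subunit H (VhaSFD, 112 FPKM) and subunit C (Vha44, 66.0 FPKM), both of which sit where V1 meets V0, were lower. The genes of each subunit differed in how steady they were over the groups. The highest group mean was 1.36 times the lowest for VhaAC39-1, subunit d that joins the rotor to the ring, 1.44 times for Vha36-1 and 1.56 times for Vha13. It was 7.63 times the lowest for Vha68-1, 7.17 times for VhaM9.7-a, 9.36 times for VhaAC45RP and 37.8 times for the restricted Vha100-5.

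**Figure D2:**
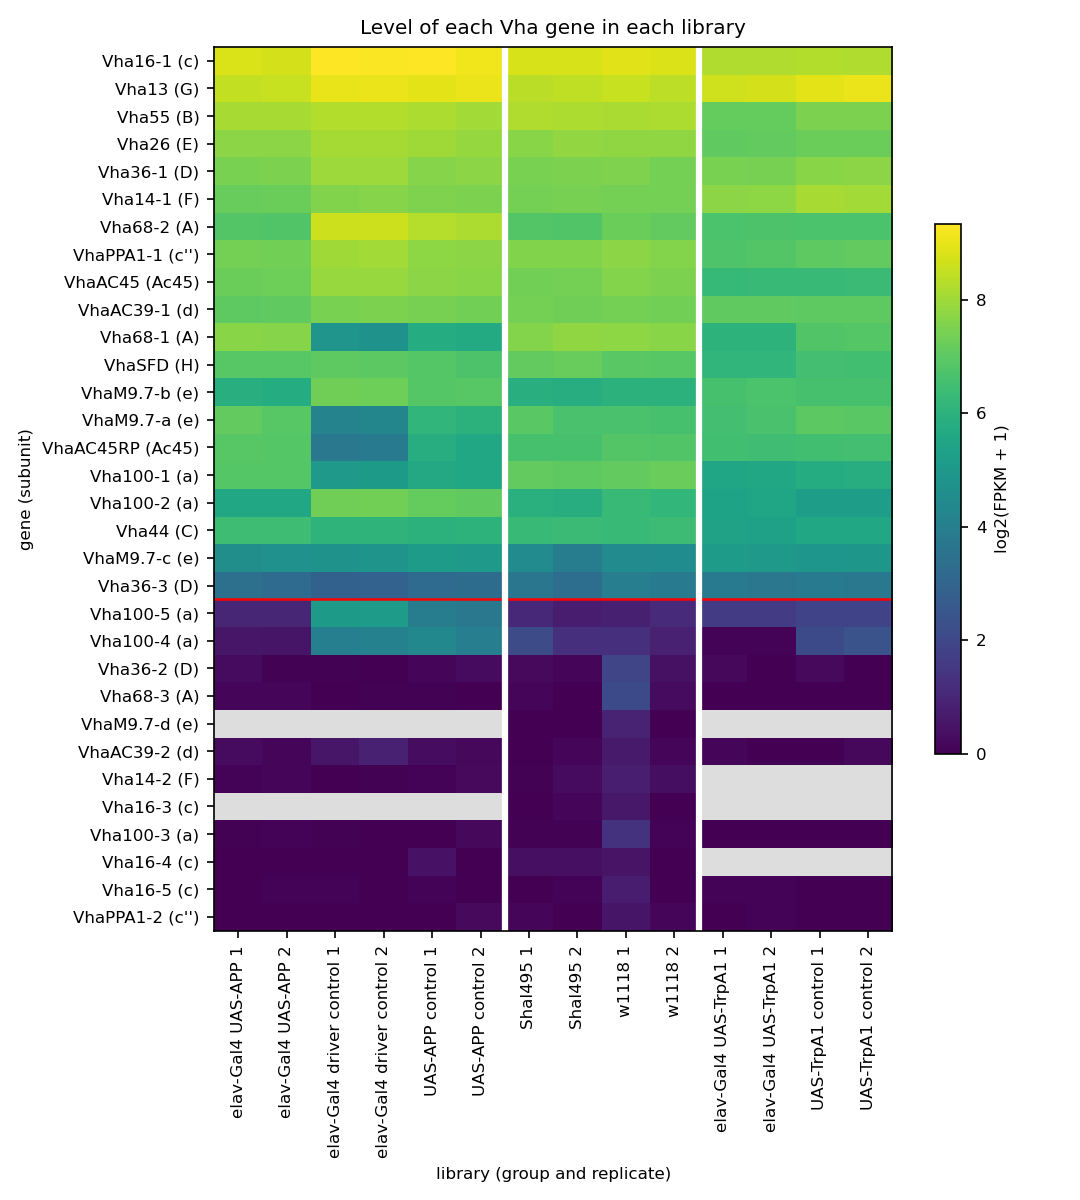
Heat map of log2(FPKM + 1) of each of the 32 listed Vha genes (rows, with the subunit in brackets, ordered by mean level) in each of the 14 libraries (columns), with grey for a gene not listed in a table, white lines between the 3 tables and a red line between well expressed and restricted genes. Vha68-1, VhaM9.7-a and VhaAC45RP are darker, and Vha100-4 and Vha100-5 brighter, in driver controls and UAS-APP controls than in elav-Gal4 UAS-APP.

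In 4 subunits a pair of well expressed genes moved in opposite directions in elav-Gal4 UAS-APP. Vha68-1, Vha100-1, VhaM9.7-a and VhaAC45RP rose and Vha68-2, Vha100-2, VhaM9.7-b and VhaAC45 fell against each control, with 1 of these calls (VhaAC45 against UAS-APP controls) lost after quantile normalization. The neuron markers were higher and the gut markers lower in elav-Gal4 UAS-APP in the same libraries, as given above, and the part of this in the result was not tested. Genes were tested where they reached 1 FPKM in 2 or more libraries of a table, which 22 Vha genes did. Of these 22, 6 rose and 14 fell against driver controls, a total of 20 where 84% of all tested genes passed (56.5% up and 27.5% down). Against UAS-APP controls 5 rose and 14 fell, where 76.7% of all tested genes passed (46.1% up and 30.7% down). Passing means a Benjamini-Hochberg adjusted p under 0.05 from limma over all genes of the table, on log2(FPKM + 1). So many genes passed that a call alone says little about a member, and size and direction are given for each. The libraries of the groups did not overlap in 22 of 22 Vha genes against driver controls and 20 of 22 against UAS-APP controls, where 93.2% and 88.4% of all tested genes did not.

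The median of all 9866 tested genes was itself 0.43 higher on the log2 scale in elav-Gal4 UAS-APP than in driver controls, and 0.17 higher than in UAS-APP controls. Log2 changes are therefore given less that median here and in the other comparisons, while p-values are those of the deposited values. With the libraries centred on a common median, 4 Vha genes rose (36% of all genes) and 17 fell (45.8%) against driver controls. Against UAS-APP controls 5 rose (35.2%) and 15 fell (42%) with centring. After quantile normalization 10 rose (41.2%) and 7 fell (40.1%) against driver controls, and 11 rose (40.2%) and 6 fell (37%) against UAS-APP controls. Calls that held with deposited, centred and quantile-normalized values numbered 4 up (Vha100-1, Vha68-1, VhaM9.7-a and VhaAC45RP) and 6 down (Vha100-2, Vha100-4, Vha100-5, Vha68-2, VhaM9.7-b and VhaAC45) against driver controls. Against UAS-APP controls they numbered 5 up, with Vha44 added to those 4, and 6 down, with VhaM9.7-c in place of VhaAC45. Vha100-4, counted among the falls against each control, reached 1 FPKM in the control libraries alone. The median Vha gene stood 0.85 below the median of all genes on the log2 scale against driver controls, and 0.50 below it against UAS-APP controls. After quantile normalization this turned, with the median Vha gene 0.040 above the median of all genes against driver controls and 0.13 above it against UAS-APP controls.

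**Figure D3:**
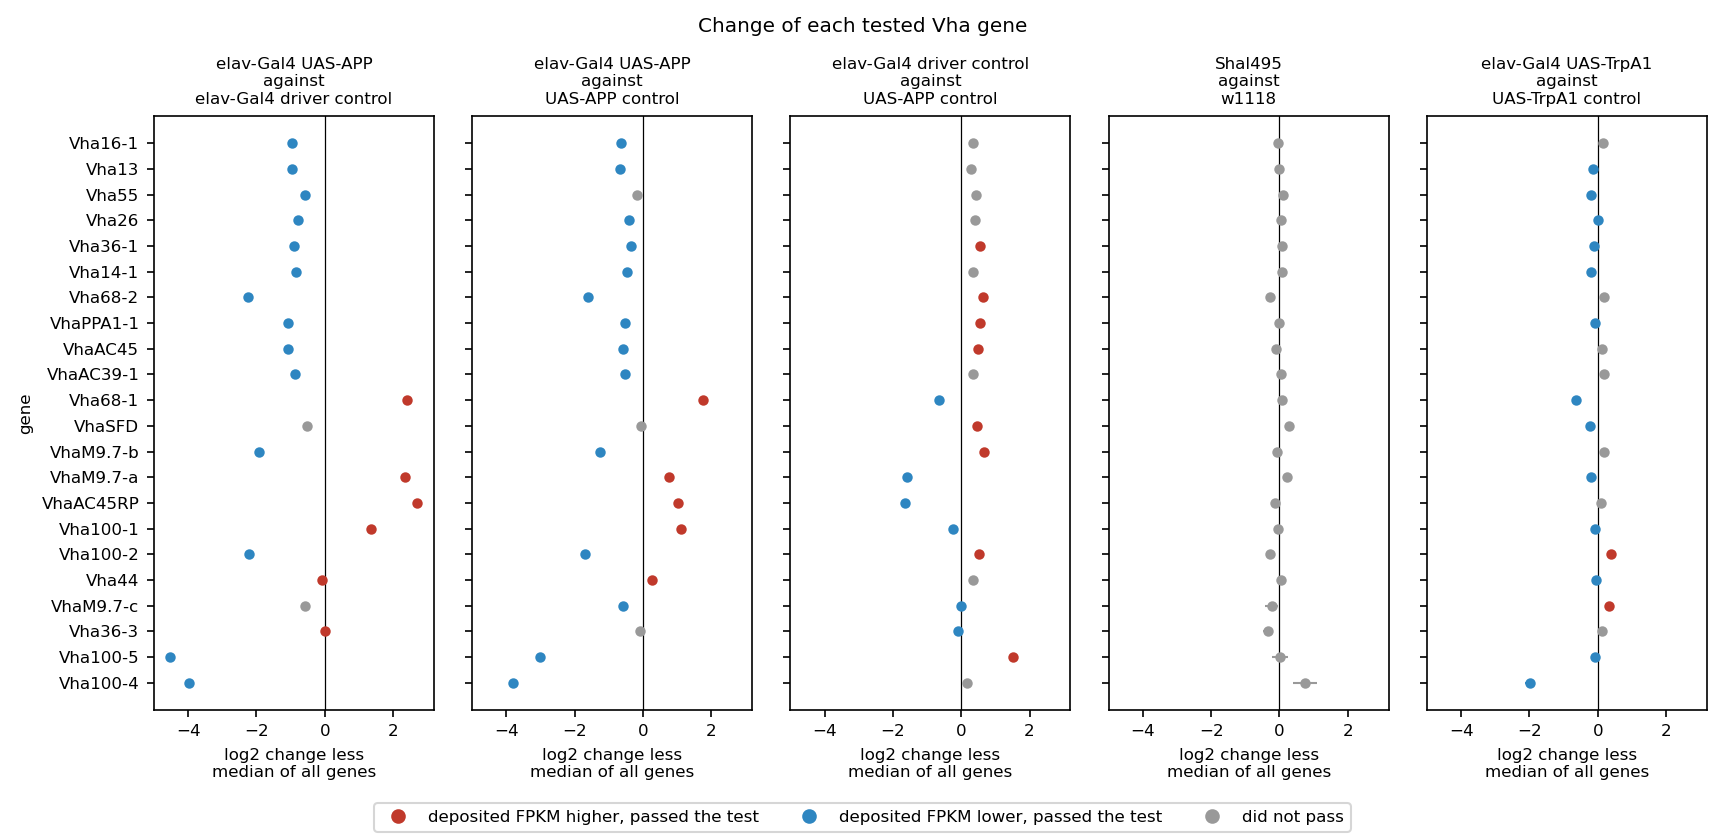
Log2 change of each tested Vha gene less the median of all tested genes, in each of the 5 comparisons, with bars for the standard error (mostly smaller than the points). Colour gives the call on the deposited FPKM, so a gene such as Vha44 can be called higher against driver controls while it lies at -0.07 relative to the median. The Shal495 panel has no call.

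Subunit A holds the catalytic ATP-binding sites. Vha68-1 had 204 and 200 FPKM in elav-Gal4 UAS-APP, against 28.1 and 26.7 FPKM in driver controls and 53.9 and 50.8 FPKM in UAS-APP controls. The libraries of the 3 groups did not overlap, and the level in elav-Gal4 UAS-APP was 7.35 times that of driver controls and 3.85 times that of UAS-APP controls. The log2 change was 2.41 against driver controls (SE 0.061, adjusted p 4.16e-08, limma) and 1.76 against UAS-APP controls (SE 0.061, adjusted p 4.66e-07, limma). Its neighbour Vha68-2 ran the opposite way, at 113 and 109 FPKM in elav-Gal4 UAS-APP, 391 and 396 FPKM in driver controls and 313 and 294 FPKM in UAS-APP controls. Its log2 change was -2.24 against driver controls and -1.61 against UAS-APP controls (adjusted p 2.09e-07 and 1.54e-06, limma). The share of Vha68-1 in the summed FPKM of subunit A was thus 64.4% in elav-Gal4 UAS-APP, 6.52% in driver controls and 14.7% in UAS-APP controls. The sum itself differed less, at 313, 421 and 356 FPKM in the same order.

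Both genes lie on chromosome arm 2L of BDGP6, the build of the tables, Vha68-2 at 12974322 to 12978607 and Vha68-1 at 13000770 to 13004107. The third gene, Vha68-3, starts 178 bases after Vha68-2 and is listed from 12978786 to 12981293. It was a restricted gene, between 0.0212 and 0.130 FPKM in the 6 libraries of the APP table. The 2 well expressed copies are close in sequence. How the authors counted fragments that fit both copies was not stated, so their separate values are uncertain to that extent.

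Subunit a carries the proton channels of V0 and helps to set in which membrane a pump sits. Vha100-1, the form known from neurons and synaptic vesicles, had 116 and 116 FPKM in elav-Gal4 UAS-APP, 32.0 and 33.4 FPKM in driver controls and 48.1 and 46.4 FPKM in UAS-APP controls. It lies on 3R at 29131193 to 29137980. Its level was 3.55 times that of driver controls and 2.45 times that of UAS-APP controls, with log2 changes of 1.37 and 1.11 (SE 0.057 for both, adjusted p 1.87e-07 and 2.12e-06, limma). Vha100-2, on 3R at 18390323 to 18399169, had 45.7 and 45.9 FPKM in elav-Gal4 UAS-APP, against 158 and 163 FPKM in driver controls and 138 and 132 FPKM in UAS-APP controls. It fell by 2.21 and 1.71 on the log2 scale (adjusted p 1.69e-07 and 8.16e-07, limma). Vha100-1 made up 71.1% of the summed FPKM of subunit a in elav-Gal4 UAS-APP, 13.5% in driver controls and 22.2% in UAS-APP controls.

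A pair of restricted genes of subunit a was low in elav-Gal4 UAS-APP. Vha100-4, which is known from the acid-secreting copper cells of the midgut, had 0.490 and 0.428 FPKM in elav-Gal4 UAS-APP, 15.5 and 16.4 FPKM in driver controls and 19.7 and 14.8 FPKM in UAS-APP controls. The groups were far apart, with a mean 34.7 times higher in driver controls and 37.6 times higher in UAS-APP controls than in elav-Gal4 UAS-APP. Vha100-4 passed the filter on low values through the control libraries alone, so it had to differ, and its values are given as a description with no test. On 3R, 517 bases separate Vha100-4 from Vha100-2, which lies at the higher coordinates, and both are on the minus strand. Vha100-5, on 2L at 11738948 to 11744524, had 1.01 and 1.00 FPKM in elav-Gal4 UAS-APP, 32.8 and 34.0 FPKM in driver controls and 14.7 and 12.3 FPKM in UAS-APP controls. Its mean was 33.3 times higher in driver controls and 13.4 times higher in UAS-APP controls than in elav-Gal4 UAS-APP. The log2 change of -4.53 and -3.02 (adjusted p 6.33e-08 and 6.54e-07, limma) was taken after adding 1 to each FPKM, which shrinks it at such levels. The longest overlap of an exon of Vha100-5 with an exon of an antisense gene, asRNA:CR44144, is 355 bases. No strand marking is stated, so the 2 genes' fragments there cannot be told apart. Vha100-5 made up 0.62% of the summed FPKM of subunit a in elav-Gal4 UAS-APP, against 13.8% in driver controls and 6.32% in UAS-APP controls, and Vha100-4 made up 0.28%, 6.57% and 8.07%. The gut markers, at 741 and 747 summed FPKM in elav-Gal4 UAS-APP, were at 22843 FPKM or more in the 4 control libraries. That sum is made up largely of digestive enzymes. The list's copper cell gene lab, a homeobox factor, was at 1.09 and 1.22 FPKM in elav-Gal4 UAS-APP, 1.01 and 1.27 FPKM in driver controls and 1.46 and 1.36 FPKM in UAS-APP controls, so its elav-Gal4 UAS-APP libraries lay within the range of driver controls.

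Subunit e is a small membrane protein of V0 of which VhaM9.7-a and VhaM9.7-b were the main genes. VhaM9.7-a had 135 and 119 FPKM in elav-Gal4 UAS-APP, 17.0 and 18.4 FPKM in driver controls and 70.6 and 62.7 FPKM in UAS-APP controls. No library of 1 group reached into another, and the level was 7.17 times that of driver controls and 1.91 times that of UAS-APP controls. The log2 changes were 2.34 and 0.75 (SE 0.090 for both, adjusted p 2.02e-07 and 6.51e-05, limma). VhaM9.7-b had 56.2 and 54.3 FPKM in elav-Gal4 UAS-APP, against 159 and 154 FPKM in driver controls and 115 and 121 FPKM in UAS-APP controls, with log2 changes of -1.91 and -1.25 (adjusted p 3.97e-07 and 4.09e-06, limma). The summed FPKM of subunit e was close in the 3 groups, at 207 in elav-Gal4 UAS-APP, 201 in driver controls and 218 in UAS-APP controls. VhaM9.7-c, which lies 75839 bases before VhaM9.7-a on 3L, had 23.2 and 25.6 FPKM in elav-Gal4 UAS-APP and 26.6 and 27.4 FPKM in driver controls. This difference did not pass on deposited values (adjusted p 0.108, limma) but was called lower with median centring. VhaM9.7-c also fell against UAS-APP controls, which had 34.2 and 32.1 FPKM.

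The accessory protein Ac45, known in mammals to help sort the pump to secretory membranes, has a pair of genes in the fly. VhaAC45RP, on 3R at 30164692 to 30166419, had 120 and 116 FPKM in elav-Gal4 UAS-APP, 12.3 and 13.0 FPKM in driver controls and 55.6 and 46.5 FPKM in UAS-APP controls. This was the largest rise among the well expressed genes against driver controls, at 9.36 times, and 2.32 times against UAS-APP controls. The log2 changes were 2.70 and 1.03 (SE 0.090 for both, adjusted p 1.32e-07 and 1.71e-05, limma). VhaAC45 had 151 and 153 FPKM in elav-Gal4 UAS-APP, 235 and 240 FPKM in driver controls and 209 and 202 FPKM in UAS-APP controls. It fell by 1.06 against driver controls and by 0.60 against UAS-APP controls (adjusted p 2.15e-05 and 2.76e-04, limma), and the second of these calls was lost after quantile normalization (adjusted p 0.483). The 2 genes summed to 271 FPKM in elav-Gal4 UAS-APP, 250 FPKM in driver controls and 256 FPKM in UAS-APP controls.

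The balance within each pair was also read as a ratio inside a library, which no single factor applied to a library can move, though quantile normalization can. The ratio of Vha68-1 to Vha68-2 was 1.81 in elav-Gal4 UAS-APP, 0.070 in driver controls and 0.173 in UAS-APP controls. For Vha100-1 to Vha100-2 it was 2.54, 0.204 and 0.350, for VhaM9.7-a to VhaM9.7-b 2.30, 0.113 and 0.567, and for VhaAC45RP to VhaAC45 0.775, 0.053 and 0.248, in the same order of groups. Against driver controls the ratios were thus 26.0, 12.4, 20.3 and 14.6 times higher in elav-Gal4 UAS-APP, and against UAS-APP controls 10.5, 7.25, 4.06 and 3.13 times higher. The libraries did not overlap in any of these, and the exact two-sided permutation p was 0.333 each time, the smallest that 2 libraries against 2 allow. These pairs were taken because their genes moved in opposite directions, so their ratios had to separate and are a description. For a further pair, Vha36-3 to Vha36-1, the ratio was 0.052, 0.026 and 0.043 in the same order of groups. That was 1.98 times driver controls and 1.21 times UAS-APP controls.

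**Figure D4:**
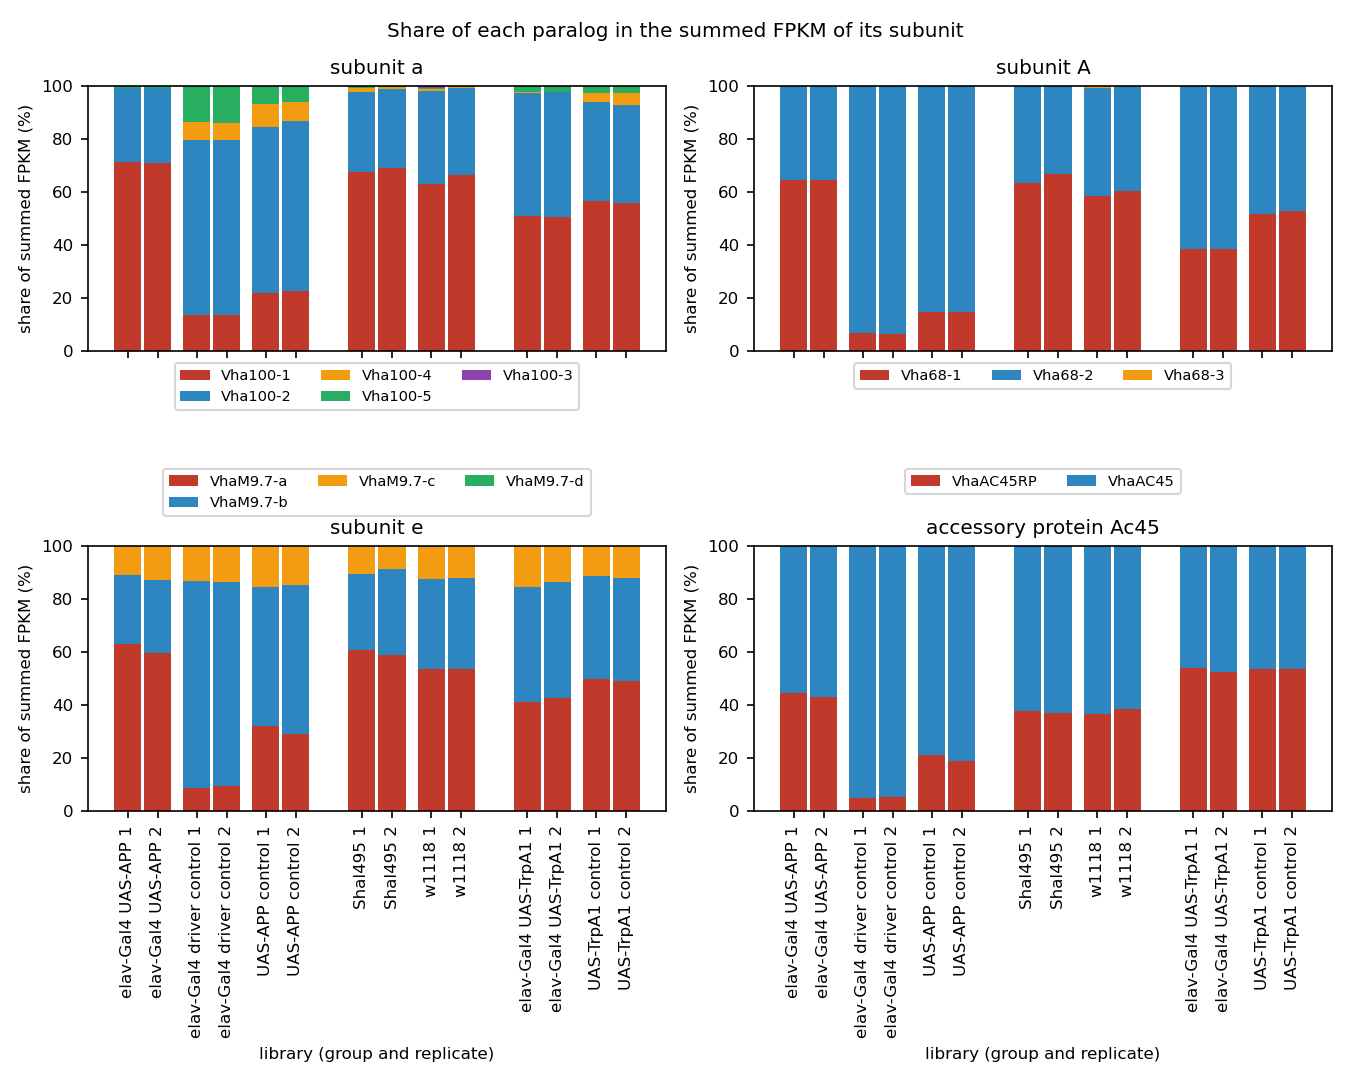
Share of each paralog in the summed FPKM of its subunit, in percent, as stacked bars with a bar per library, for subunits a, A and e and the Ac45 proteins. In the APP table Vha68-1 holds 64.4% of subunit A in elav-Gal4 UAS-APP and 6.52% in driver controls, and Vha100-1 holds 71.1% and 13.5% of subunit a.

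Each of the other subunits had 1 well expressed gene, apart from subunit D with 2. Vha16-1 had 442 and 429 FPKM in elav-Gal4 UAS-APP, 639 and 628 FPKM in driver controls and 646 and 564 FPKM in UAS-APP controls. Vha13 had 354 and 370 FPKM in elav-Gal4 UAS-APP, against 519 and 531 FPKM in driver controls and 498 and 535 FPKM in UAS-APP controls. Both were lower in elav-Gal4 UAS-APP in deposited FPKM and passed against both controls, but after quantile normalization they were called higher. The same reversal was seen for Vha26 against both controls, for Vha55 against driver controls and for Vha36-1 against UAS-APP controls, so no direction is given for these genes. For Vha14-1, VhaAC39-1 and VhaPPA1-1, which passed as lower against both controls on deposited values, no call was left after quantile normalization. In subunit D, Vha36-1 had 175 and 180 FPKM in elav-Gal4 UAS-APP, 248 and 248 FPKM in driver controls and 197 and 207 FPKM in UAS-APP controls. Its lower partner Vha36-3 had 9.92 and 8.66 FPKM in elav-Gal4 UAS-APP, against 6.50 and 6.60 FPKM in driver controls and 8.61 and 8.91 FPKM in UAS-APP controls. Vha55 had 275 and 274 FPKM in elav-Gal4 UAS-APP, 306 and 308 FPKM in driver controls and 288 and 265 FPKM in UAS-APP controls, whose libraries lay on either side of the elav-Gal4 UAS-APP values. Vha44, subunit C, which in yeast leaves the pump when V1 and V0 come apart, had 85.9 and 84.8 FPKM in elav-Gal4 UAS-APP, 67.2 and 65.7 FPKM in driver controls and 62.7 and 64.2 FPKM in UAS-APP controls. It rose against UAS-APP controls under every scaling, by 0.25 relative to the median (adjusted p 2.64e-04, limma), while against driver controls its direction turned with median centring. The longest overlap of an exon of Vha44 with an exon of Hmgs, on the opposite strand, is 148 bases. VhaSFD did not pass on deposited values against either control (adjusted p 0.263 and 0.153, limma). It was called lower against driver controls with median centring but higher against both controls after quantile normalization, so no direction is given for it. The summed FPKM of all listed Vha genes was 3066 in elav-Gal4 UAS-APP, 3925 in driver controls and 3634 in UAS-APP controls. As a share of the summed FPKM of all genes it ran the other way, at 0.695% in elav-Gal4 UAS-APP, 0.588% in driver controls and 0.592% in UAS-APP controls, so no direction is given for the pump as a whole.

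The controls also differed from each other. Of the 22 Vha genes 8 were higher and 6 lower in driver controls than in UAS-APP controls, where 66.3% of all tested genes passed (16.2% up and 50.2% down) and the median gene was 0.27 lower in driver controls. With centring these counts were 15 (29.7% of all genes) and 4 (24%), and with quantile normalization 5 (24.7%) and 4 (27.7%). In 19 of 22 Vha genes the libraries did not overlap, as in 84.1% of all genes. Vha68-1, Vha100-1, VhaM9.7-a and VhaAC45RP were lower in driver controls under each scaling, with log2 changes of -0.64, -0.25, -1.58 and -1.66 relative to the median. Vha68-2, VhaM9.7-b, Vha36-1, VhaPPA1-1 and Vha100-5 were higher under each scaling. For Vha100-5 the log2 change was 1.52 (adjusted p 6.11e-05, limma), while Vha100-4 did not pass (adjusted p 0.534). The neuron sum was lower and the gut sum higher in driver controls here too, and their part in these differences was not tested. Without driver control replicate 2, 4 Vha genes were higher instead of 8. All 3 comparisons of this table share groups, so they are not independent of each other.

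In Shal495 flies no Vha gene passed the test against w1118, with 0 of 22 called by limma where 2.37% of all tested genes passed. At an unadjusted p under 0.05 there were 3, and voom on recovered fragments called 0, as did limma without w1118 replicate 1. Vha100-2 had 60.4 and 56.0 FPKM in Shal495 and 77.0 and 72.0 FPKM in w1118 (adjusted p 0.129). Vha68-2 had 113 and 111 FPKM in Shal495 and 149 and 135 FPKM in w1118 (adjusted p 0.138). Vha36-3, a further gene of subunit D, had 11.8 and 9.38 FPKM in Shal495 and 15.1 and 13.3 FPKM in w1118 (adjusted p 0.246). In these 3 genes both Shal495 libraries were below both w1118 libraries, and the groups did not overlap in 14 of 22 Vha genes and in 52.7% of all tested genes. Vha68-1 had 195 and 223 FPKM in Shal495 and 214 and 205 FPKM in w1118, with overlapping libraries. On deposited values, without taking off the median, the log2 difference of Vha68-1 was -0.01 with an SE of 0.10 (adjusted p 0.984, limma). The median of all tested genes was -0.07 on that scale. The shares of Vha68-1 and Vha100-1 were 65.1% and 68.2% in Shal495 and 59.3% and 64.6% in w1118.

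The 10 remaining restricted genes were too low to be tested. They are Vha100-3, Vha14-2, Vha16-3, Vha16-4, Vha16-5, Vha36-2, Vha68-3, VhaAC39-2, VhaM9.7-d and VhaPPA1-2, second or further copies of subunits a, F, c, D, A, d, e and c''. All 10 had more than 3 fragments, the detection floor, in replicate 1 of w1118, and each had its highest value of the second table there. Their summed fragments were 16 and 20 in the Shal495 libraries, against 348 in w1118 replicate 1 and 31 in w1118 replicate 2. Between 3 and 24 fragments were counted for these genes in each library of the other tables. Vha68-3 was at 3.23 FPKM in w1118 replicate 1 and 0.201 FPKM in replicate 2, Vha36-2 at 2.83 and 0.337 FPKM, and Vha100-3 at 1.58 and 0.0558 FPKM. The same library had testis markers at 247 summed FPKM, with Mst87F at 22.2 FPKM and dj at 14.3 FPKM, where replicate 2 had 1.58 and 0.316 FPKM. The part of this in the values of the 10 genes was not tested.

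**Figure D5:**
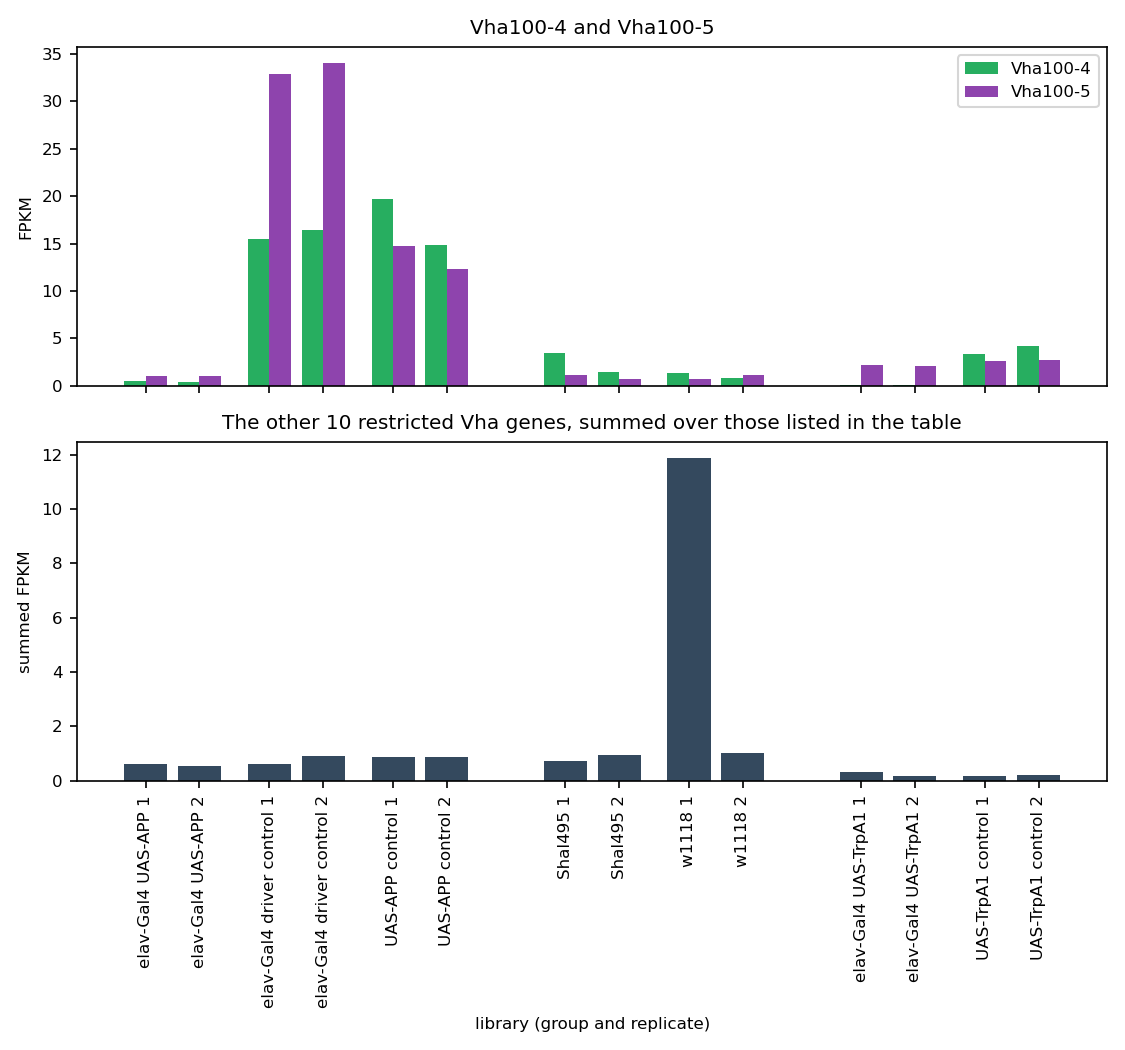
Restricted Vha genes by library, with the FPKM of Vha100-4 and Vha100-5 above and the summed FPKM of the 10 untested genes below, with a bar per library. Vha100-4 and Vha100-5 are high in driver controls and UAS-APP controls, and the summed bar of the other genes is high in w1118 replicate 1 alone.

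In elav-Gal4 UAS-TrpA1 flies 2 Vha genes rose and 13 fell against the UAS-TrpA1 control, where 60.6% of all tested genes passed (16.6% up and 43.9% down). The median gene was 0.16 lower in elav-Gal4 UAS-TrpA1, and with centring 8 rose (28.8% of all genes) and 6 fell (22.7%), with quantile normalization 3 (25.9%) and 11 (24.2%). In 18 of 22 Vha genes the libraries did not overlap, as in 80.9% of all genes. The median Vha gene was 0.063 below the median of all genes. The 13 include Vha100-4, which reached 1 FPKM in the control libraries alone. Of the others, Vha68-1, Vha55, VhaSFD, Vha14-1 and VhaM9.7-a fell under each scaling and Vha100-2 and VhaM9.7-c rose. Fat body markers summed to 1306 and 1315 FPKM in elav-Gal4 UAS-TrpA1 and 435 and 430 FPKM in the control. Of 5 tested fat body markers 4 were higher and 1 lower in elav-Gal4 UAS-TrpA1 (limma). Among them Yp1 reached 1 FPKM in the control libraries alone and Lsp2 in the elav-Gal4 UAS-TrpA1 libraries alone. The filter on low values thus fixed the direction of both. Lsp1beta was at 815 and 845 FPKM there and 21.8 and 22.3 FPKM in the control. Yp1 went the other way, at 0.0645 and 0.0645 FPKM against 63.7 and 63.2 FPKM. Muscle markers summed to 618 and 629 FPKM in elav-Gal4 UAS-TrpA1 and 1115 and 1116 FPKM in the control. Hemocyte markers summed to 93.6 and 96.1 FPKM in elav-Gal4 UAS-TrpA1 and 47.3 and 50.6 FPKM in the control, and glia markers to 896 and 899 FPKM and 1218 and 1229 FPKM. None of these sums overlapped between the groups, and their part in the results was not tested.

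Vha68-1 had 64.3 and 65.3 FPKM in elav-Gal4 UAS-TrpA1 and 110 and 115 FPKM in the UAS-TrpA1 control. The groups were apart, with a log2 change of -0.63 relative to the median (SE 0.040, adjusted p 1.41e-05, limma). Vha68-2 did not pass, at 102 and 105 FPKM in elav-Gal4 UAS-TrpA1 and 103 and 103 FPKM in the control, and the share of Vha68-1 was 38.4% and 52.3%. Vha100-2 had 42.0 and 44.4 FPKM in elav-Gal4 UAS-TrpA1 and 36.0 and 36.8 FPKM in the control, a log2 change of 0.40 (SE 0.046, adjusted p 4.75e-03, limma). Vha100-1 had 45.6 and 47.1 FPKM in elav-Gal4 UAS-TrpA1 and 54.4 and 55.6 FPKM in the control, and its call was lost with median centring. Thus the ratio of Vha100-1 to Vha100-2 was 1.07 in elav-Gal4 UAS-TrpA1, against 1.51 in its control. VhaAC45RP and VhaAC45 did not pass on deposited values (adjusted p 0.241 and 0.398, limma), with their ratio at 1.14 and 1.15. Both were called higher with median centring.

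Of the head and stalk subunits, Vha55 had 140 and 140 FPKM in elav-Gal4 UAS-TrpA1 and 179 and 177 FPKM in the control, VhaSFD 69.3 and 70.6 FPKM and 93.1 and 90.5 FPKM, and Vha14-1 207 and 212 FPKM and 274 and 264 FPKM. These were falls of 0.18, 0.22 and 0.19 relative to the median, with no overlap between the groups. VhaM9.7-a had 92.8 and 99.0 FPKM in elav-Gal4 UAS-TrpA1 and 125 and 121 FPKM in the control. VhaM9.7-c had 34.5 and 32.0 FPKM and 28.8 and 29.6 FPKM in the same order (adjusted p 0.0254, limma), a call lost without replicate 1 of elav-Gal4 UAS-TrpA1 and without either control library. Vha100-4 was near the detection floor in elav-Gal4 UAS-TrpA1, with 4 and 3 fragments (0.0762 and 0.0571 FPKM), against 3.33 and 4.22 FPKM in the control. It passed the filter on low values through the control libraries alone, so no test is given. The gut marker lab was also lower there, at 0.358 and 0.273 FPKM in elav-Gal4 UAS-TrpA1 and 0.842 and 0.907 FPKM in the control. Vha16-1 did not pass on deposited values, at 302 and 300 FPKM in elav-Gal4 UAS-TrpA1 and 304 and 299 FPKM in the control, but was called higher with median centring.

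Genes that work with the pump were read from lists. Synaptic vesicle transporters, which use the proton gradient to load transmitter, rose in 5 of 5 against each control in elav-Gal4 UAS-APP, where 56.5% of all tested genes rose against driver controls and 46.1% against UAS-APP controls. In the same libraries 9 of 9 neuron markers rose, with a median 3.37 above that of all genes against driver controls and 2.13 above it against UAS-APP controls, and their part in the transporters' rise was not tested. VGAT, for GABA, had 42.6 and 42.7 FPKM in elav-Gal4 UAS-APP, 3.71 and 3.47 FPKM in driver controls and 10.8 and 8.92 FPKM in UAS-APP controls. VAChT, for acetylcholine, had 33.0 and 30.6 FPKM in elav-Gal4 UAS-APP, against 2.35 and 2.30 FPKM in driver controls and 9.97 and 6.31 FPKM in UAS-APP controls. VGlut, Vmat and prt were the others, and the list median was 2.79 above that of all genes against driver controls and 1.60 against UAS-APP controls. Of the 5, 4 were lower in driver controls than in UAS-APP controls (50.2% of all genes were) and prt did not pass (adjusted p 0.247). In Shal495 none of the 5 passed. In elav-Gal4 UAS-TrpA1 4 fell (VGAT, prt, VAChT and Vmat, where 43.9% of all genes fell) and VGlut did not pass. With median centring 3 fell (22.7% of all genes) and 1 rose (28.8%). Of the 9 neuron markers 6 fell and 0 rose in elav-Gal4 UAS-TrpA1 on deposited values, and 3 fell and 2 rose with median centring. Their part in the transporters' changes there was not tested.

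Of 24 lysosomal genes, 23 were tested in the APP table, and 6 rose and 15 fell against driver controls, where 56.5% of all tested genes rose and 27.5% fell. Against UAS-APP controls 5 rose and 15 fell, where 46.1% of all genes rose and 30.7% fell. With centring the counts were 2 (36% of all genes) and 17 (45.8%) against driver controls and 1 (35.2%) and 17 (42%) against UAS-APP controls. With quantile normalization they were 7 (41.2%) and 12 (40.1%) against driver controls and 7 (40.2%) and 12 (37%) against UAS-APP controls. CtsB, a cathepsin protease, had 150 and 148 FPKM in elav-Gal4 UAS-APP, 473 and 468 FPKM in driver controls and 309 and 359 FPKM in UAS-APP controls. Npc1a, which moves sterols out of lysosomes, went the other way, at 41.9 and 42.2 FPKM in elav-Gal4 UAS-APP, 15.5 and 16.4 FPKM in driver controls and 20.8 and 18.2 FPKM in UAS-APP controls. Hemocyte markers summed to 82.2 and 84.7 FPKM in elav-Gal4 UAS-APP and fat body markers to 307 and 307 FPKM. In driver controls these sums were 119 and 128 FPKM and 380 and 384 FPKM. In UAS-APP controls they were 190 and 202 FPKM and 657 and 740 FPKM. Against driver controls 1 of 4 tested hemocyte markers rose and 3 fell. The part of these sums in the lysosomal counts was not tested. Between the controls 11 were higher and 9 lower in driver controls (16.2% and 50.2% of all genes), and with centring 14 and 3 (29.7% and 24%). In Shal495 0 of 22 were called. In elav-Gal4 UAS-TrpA1 12 of 22 rose and 4 fell, where 16.6% of all tested genes rose and 43.9% fell. The list median was 0.37 above that of all genes, and 0.16 above it after quantile normalization. The higher hemocyte and fat body sums of elav-Gal4 UAS-TrpA1 are given further above, and their part in this was not tested. The lysosomal transporter spin had 67.1 and 69.8 FPKM in elav-Gal4 UAS-TrpA1 and 39.3 and 38.8 FPKM in the control, the mannosidase LManII 161 and 159 FPKM and 104 and 105 FPKM, and the protease CtsL1 480 and 489 FPKM and 359 and 348 FPKM.

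Of 5 genes for assembly and control of the pump, 2 rose and 1 fell against driver controls in elav-Gal4 UAS-APP, and 3 rose and 1 fell against UAS-APP controls. The share of all tested genes was 56.5% up and 27.5% down against driver controls, and 46.1% up and 30.7% down against UAS-APP controls. With centring the counts became 0 (36% of all genes) and 3 (45.8%) against driver controls and 2 (35.2%) and 2 (42%) against UAS-APP controls. ATP6AP2, an accessory subunit also called the prorenin receptor, had 167 and 169 FPKM in elav-Gal4 UAS-APP, 221 and 225 FPKM in driver controls and 210 and 204 FPKM in UAS-APP controls. Rbcn-3A, a rabconnectin that helps V1 join V0, averaged 39.6 ± 0.74 FPKM in elav-Gal4 UAS-APP, 23.4 ± 0.47 FPKM in driver controls and 20.7 ± 3.86 FPKM in UAS-APP controls (SD, n = 2 each). Mitf, a transcription factor that activates Vha genes in the fly, did not pass against either control (adjusted p 0.646 and 0.325, limma), at 25.3 and 23.9 FPKM in elav-Gal4 UAS-APP, 25.4 and 24.9 FPKM in driver controls and 24.0 and 22.6 FPKM in UAS-APP controls. In Shal495 none of the 5 passed, and in elav-Gal4 UAS-TrpA1 all 5 fell on deposited values (43.9% of all genes did) but 1 with centring (22.7%).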

How the data were processed

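Adult male flies in 7 groups of 2 libraries were profiled by paired-end RNA sequencing after oligo-dT enrichment, per the labels' protocols. The authors deposited FPKM per gene in 3 tables. The submitters' processing notes name BDGP6, Bowtie2 2.2.3, HISAT2 2.1.0 and TopHat2 without roles; the FPKM tool and the assignment of fragments shared by paralogs are not given in the sources used here. Genes were matched by FlyBase id, and 2 Vha genes by coordinates. Fragment totals were recovered from FPKM times exon length, within 0.02 of a whole number. The detection floor was 3 fragments and covers counting error only. Testing took genes that reached FPKM 1 in 2 or more libraries, on log2(FPKM + 1), by limma 3.58.1 (R 4.3.3), mean-variance trend and Benjamini-Hochberg adjustment over all genes, within a table only, since the tables were normalized separately. The APP table was 1 fit of 6 libraries. The 2 libraries of a group differed by more than sampling noise in every group (chi-square per gene 1.87 to 28.0). On simulated data with 200 changed genes, a log2 change of 1 was recovered in 97% (APP against the driver control), 98% (Shal495) and 99% (TrpA1) of cases. Every group was simulated at the same dispersion (0.005), with 18 false calls in each comparison. The real spread differed by group, with chi-square per gene 28.0 in Shal495 and 24.6 in w1118, against 3.57 and 2.36 in the third table. Far fewer genes were changed than passed in the APP and TrpA1 tables. These shares therefore do not give the power of the real tests. The members and lists were chosen with earlier results of these data known. All Vha genes could be named, and of each other list up to 4 tested members with the smallest adjusted p per comparison, or every member of lists of 5 or fewer. Promoter and protein sequences were not used here.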

Additional observations from a re-analysis of the deposited data

How the results depend on the processing

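Alternatives were quantile normalization, median centring, adding 0.1 before the log, leaving the filter out or setting it at FPKM 5, voom on recovered fragments, fits of only the groups compared, a replicate block and leaving out each library. Over single genes, 1166 values kept their side of the threshold, 29 gained and 51 lost a call, and 22, listed below, changed sign with a call in either fit. Genes called in neither fit count among the 1166 even where their sign turned, as for Vha68-1 in Shal495 with centring. The cause was not tested. Quantile normalization gave 10 Vha genes up and 7 down for elav-Gal4 UAS-APP over driver controls, 11 and 6 over UAS-APP controls, and 5 up between the controls; centring gave 15 up between the controls and 8 up and 6 down for elav-Gal4 UAS-TrpA1, where no filter and voom each gave 1 up. Leaving out a library gave 6 up and 13 down, 5 to 6 up and 12 to 15 down, 4 to 12 up and 4 to 7 down, 0 and 0 (Shal495), and 1 to 2 up and 11 to 12 down, in the order of the comparisons. The 4 came without driver control replicate 2, and the 1 without elav-Gal4 UAS-TrpA1 replicate 1 or either control library. In quantile-normalized values the sign turned against driver controls for Vha13 (0.32), Vha14-1 (0.0096), Vha16-1 (0.46), Vha26 (0.30), Vha36-1 (0.074), Vha36-3 (-0.16, and -0.12 with centring), Vha55 (0.56) and VhaSFD (0.26), and with centring for Vha44 (-0.21). Against UAS-APP controls it turned for Vha13 (0.27), Vha14-1 (0.0071), Vha16-1 (0.44), Vha26 (0.31), Vha36-1 (0.26), Vha55 (0.57) and VhaPPA1-1 (0.046). With centring it turned for VhaM9.7-c between the controls (0.022) and in elav-Gal4 UAS-TrpA1 for Vha16-1 (0.18), Vha26 (0.020), VhaAC45 (0.15) and VhaAC45RP (0.13).

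Same-numbered libraries showed no pairing: their deviations correlated at -0.033 to 0.018. The replicate block gave 6 up and 13 down, 5 and 14, 8 and 6, 0 and 0, and 2 and 12.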
